A study of Mus musculus with 7 samples.

Results

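To examine how the transcription factors of the intestinal secretory lineage responded to TNF, a pro-inflammatory cytokine, 10 genes were followed in bulk RNA-seq counts of sorted Paneth cells (PCs), the granulated antimicrobial cells at the base of small intestinal crypts. The genes were chosen by name (Atoh1, Sox9, Gfi1, Spdef, Bhlha15, Foxa1, Foxa2, Foxa3, Klf4 and Klf5), and all 10 were found among the 55414 Ensembl identifiers of the count table. Mice of strain C57BL/6J had received PBS (3 libraries) or TNF (4 libraries), 15 h later PCs were sorted from their small intestine, with a different mouse behind each library. The mice carried no further allele or agent according to the labels, and the dose of TNF, the age and sex of the mice and the sort gate remain not given in the sources used here. Libraries held 15511455 to 19193721 counts.

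Secretory cells of the intestine arise from crypt progenitors that escape Notch signalling and switch on the basic helix-loop-helix factor ATOH1, without which Paneth, goblet and enteroendocrine cells do not form. The zinc finger repressor GFI1 acts downstream of ATOH1 and steers cells away from the enteroendocrine fate, and the HMG box factor SOX9, a Wnt target, is required for PCs to form. The ETS factor SPDEF drives the maturation of goblet cells and PCs, MIST1 (the product of Bhlha15) sets up the secretory apparatus of professional secretory cells, and the FOXA and KLF factors act in goblet and enteroendocrine differentiation and in the balance of growth and differentiation.

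Of these 10 factors, 5 fell and 4 rose after TNF, and Sox9 did not pass the test. The falls were those of Bhlha15 (27.6-fold), Foxa2 (8.24-fold), Atoh1 (3.4-fold), Foxa3 (2.82-fold) and Gfi1 (2.79-fold). The rises were those of Foxa1 (2.73-fold), Spdef (2.7-fold), Klf5 (2.15-fold) and Klf4 (1.55-fold). All 10 passed the filter on low counts. A gene was called when its adjusted p in edgeR was under 0.05, which held for 59.6% of the 14329 genes tested (29.5% higher and 30.1% lower). With scaling by total counts 3142 genes were higher and 4614 lower, and the calls of the 10 factors were as before. For 9 of the 10 factors the library values of the groups did not overlap, against 60.7% of all genes tested, so most genes moved in these libraries and the count of called factors says little by itself. The median log2 fold change was -0.56 over the 10 factors and 0.0017 over all genes tested. No factor lay near -0.56, which falls in the gap between Gfi1 (-1.48) and Sox9 (0.35).

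**Figure D1:**
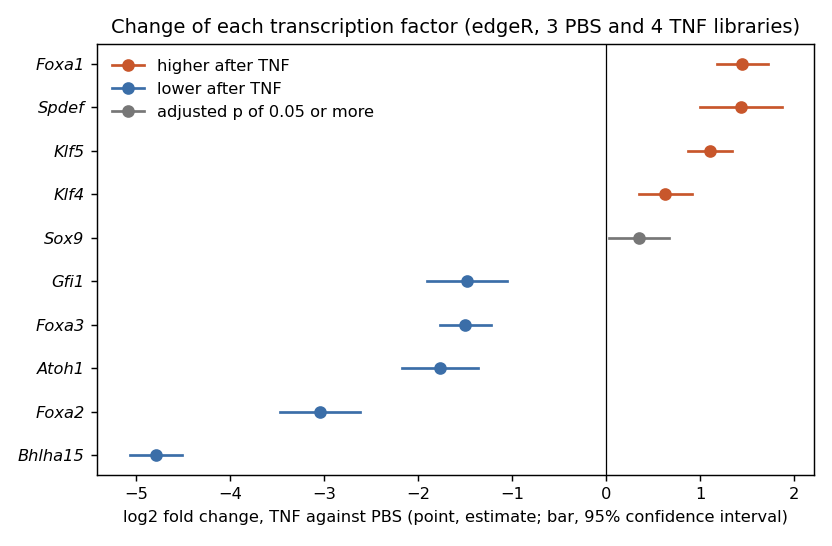
Log2 fold change of each factor, TNF against PBS, with its 95% confidence interval, from the edgeR fit of 3 PBS and 4 TNF libraries. Bhlha15 lies farthest from 0 at -4.79, Foxa1 and Spdef lie highest at 1.45 and 1.44, and Sox9 is the only factor drawn in grey.

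The regulatory sequence in front of the factors is shown for 3 genes that fell and 1 that rose. RefSeq windows of the assembly GRCm38.p6 were found for 8 factors (11 start sites), and no window was used for Sox9 and Klf5. Printed are the 250 bases before the start site, 5′ to 3′ in the direction of transcription, of Bhlha15 (chr5:144190036-144190285, plus strand), Atoh1 (chr6:64728875-64729124, plus strand), Foxa3 (chr7:19023540-19023789, minus strand) and Spdef (chr17:27728952-27729201, minus strand), because Bhlha15 changed most, Atoh1 and Foxa3 fell with it and Spdef rose. Capitals mark matches, on either strand, to the E-box forms CAGCTG and CAGATG, the forkhead core TGTTTAC, the KLF-type box CCACCC and the NF-kB consensus.
Bhlha15: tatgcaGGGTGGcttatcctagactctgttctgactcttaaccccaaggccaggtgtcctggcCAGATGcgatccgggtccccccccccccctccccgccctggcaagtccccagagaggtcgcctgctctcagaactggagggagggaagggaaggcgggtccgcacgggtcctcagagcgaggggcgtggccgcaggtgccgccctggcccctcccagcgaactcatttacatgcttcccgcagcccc
Atoh1: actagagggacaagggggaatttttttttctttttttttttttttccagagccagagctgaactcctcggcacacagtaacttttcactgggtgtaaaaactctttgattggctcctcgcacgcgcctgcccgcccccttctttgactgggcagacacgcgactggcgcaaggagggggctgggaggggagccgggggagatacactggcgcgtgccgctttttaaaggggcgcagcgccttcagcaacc
Foxa3: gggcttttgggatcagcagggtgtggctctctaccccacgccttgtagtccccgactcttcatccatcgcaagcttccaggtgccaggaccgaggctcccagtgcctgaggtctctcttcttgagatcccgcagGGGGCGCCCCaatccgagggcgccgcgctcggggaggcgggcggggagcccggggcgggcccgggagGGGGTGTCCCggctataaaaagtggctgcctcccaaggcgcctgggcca
Spdef: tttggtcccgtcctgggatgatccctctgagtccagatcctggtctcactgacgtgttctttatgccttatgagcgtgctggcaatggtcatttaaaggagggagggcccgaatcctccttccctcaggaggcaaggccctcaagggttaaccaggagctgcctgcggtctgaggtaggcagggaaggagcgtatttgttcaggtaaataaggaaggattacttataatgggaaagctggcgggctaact

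The Bhlha15 window held a CAGATG match that ended 181 bases before the start and a CCACCC match on the opposite strand. The Foxa3 window held 2 NF-kB matches, which ended 106 and 39 bases before the start. The windows of Atoh1 and Spdef held no match to any of these motifs. Over all 11 windows, CAGCTG was found in 1 (Klf4), CAGATG in 1 (Bhlha15), TGTTTAC in 1 (Foxa1), CCACCC in 4 (Bhlha15, Gfi1 and 2 start sites of Foxa2) and the NF-kB consensus in 2 (Gfi1 and Foxa3). Among all 32851 windows of the same length these motifs were present in 13%, 14.4%, 3.17%, 28.1% and 7.25%. None of the marked matches overlapped a match to another motif, and CAGCTG reads the same on both strands. GC content of the 11 windows ran from 50.8% to 74%, where the median of all windows was 52.4%. A match is a description of letters only.

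Atoh1 (ENSMUSG00000073043, GRCm39 chromosome 6, 64706109 to 64708229, 1 exon) was examined first as the factor at the top of the lineage. Its values were 212, 189 and 142 CPM (counts scaled to the TMM-adjusted size of each library) in PBS replicates 1 to 3, and 47.1, 38.8, 62.6 and 64.6 CPM in TNF replicates 1 to 4. Every TNF library lay below every PBS library. Mean levels were 181 ± 36 CPM (SD, n = 3) and 53.3 ± 12.4 CPM (SD, n = 4). The log2 fold change was -1.77 ± 0.18 (SE), with an adjusted p of 5.9e-06 by edgeR. In bulk RNA of sorted cells, a lower share of cells that carry a transcript and less of it per cell cannot be told apart, here and for all genes that follow.

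Gfi1 (ENSMUSG00000029275, chromosome 5, 107864523 to 107873902), the repressor downstream of ATOH1, was together with Foxa2 the least expressed of the factors after PBS per exon length. It had 31.3, 24.3 and 19.7 CPM after PBS and 6.38, 10.7, 8.62 and 10.3 CPM after TNF, again without overlap. The log2 fold change was -1.48 ± 0.20 (SE, edgeR adjusted p = 2.33e-05). The annotated gene A430072P03Rik overlaps 327 bases of its exons on the opposite strand, with at most 4 counts in any library.

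The genes around ATOH1 in Notch signalling were also mostly lower. Of 10 tested Notch pathway genes, 7 fell and none rose by the test, with a median log2 fold change of -0.88. Among all genes tested 59.6% were called, and 30.1% were called lower. Mfng (1.05 ± 0.49) and Jag1 (0.19 ± 0.16), named after their values were seen, had estimates above 0 and were not called. The Notch ligands that secretory cells present to their neighbours had log2 fold changes of -3.30 ± 0.21 (Dll4) and -2.52 ± 0.14 (Dll1). Log2 falls of similar size were measured for the receptor gene Notch1 (-2.90 ± 0.20) and for Lfng (-2.92 ± 0.28), which encodes a glycosyltransferase that modifies Notch. The smallest called falls were those of the DNA-binding partner Rbpj (-0.42 ± 0.14) and of the repressor gene Hes1 (-0.46 ± 0.14), which silences Atoh1 in cells that receive a Notch signal. The library values of Hes1 overlapped between the groups (edgeR adjusted p = 0.0115).

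ATOH1 binds DNA together with an E protein, and ID proteins take up E proteins without binding DNA. All 7 listed genes of these families fell, where 30.1% of all genes tested were called lower, and 6 were called without PBS replicate 1 or 2. Among the E protein genes, Tcf12 had the largest change, from a mean of 348 to 85.4 CPM (-2.03 ± 0.12 on the log2 scale, edgeR adjusted p = 1.07e-08), while Tcf3 and Tcf4 had log2 fold changes of -0.68 ± 0.10 and -0.38 ± 0.11. The Id genes were lower as well, with Id4 at -5.03 ± 0.58, Id3 at -1.72 ± 0.36, Id2 at -1.10 ± 0.32 and Id1 at -1.08 ± 0.24. The value of Id4 rested on few counts, 260 in all PBS and 10 in all TNF libraries. Id4 passed the filter on low counts only through the PBS libraries, so a fall was the only call open to it.

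Transcription factors of the enteroendocrine branch, which GFI1 is known to restrain, were lower too. Of 12 listed genes 8 could be tested, 7 of these fell and none rose by the test, where 30.1% of all genes tested were called lower. Of these 8 only Insm1 had enough counts in the TNF libraries alone to pass the filter on low counts. The others, Neurog3 included, passed it only through the PBS libraries, and several, such as Pax6 and Nkx2-2, had counts near 0 after TNF. A fall was thus the only call open to genes other than Insm1, and the count is a description. Neurog3, which starts the branch, had a log2 fold change of -2.11 ± 0.77. It had 55, 55 and 20 counts in the PBS and 16, 17, 0 and 5 in the TNF libraries. PBS replicate 3 (1.06 CPM) thus lay next to TNF replicate 2 (1.00 CPM). The number of called factors in this list was 5 without PBS replicate 1 or 2 and 10 without PBS replicate 3. Insm1 had -1.40 ± 0.51 (edgeR adjusted p = 0.0291), and Nkx2-2 had -6.01 ± 0.38, given as a description. For Pax6 the PBS libraries held 42 counts and the TNF libraries 2, and the ratio of PBS to TNF was 26.4 (95% exact binomial interval 6.87 to 225, counting error only). The remaining tested gene, Neurod1 (named after its value was seen), was not called (-1.34 ± 0.73, adjusted p = 0.131).

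Sox9 (ENSMUSG00000000567, chromosome 11, 112673009 to 112678586) was the factor with the smallest change. It had 437, 468 and 319 CPM after PBS and 426, 526, 574 and 553 CPM after TNF. TNF replicate 1 lay below PBS replicates 1 and 2, so the groups overlapped. The log2 fold change was 0.35 ± 0.15 (SE, 95% confidence interval 0.03 to 0.67) and the edgeR adjusted p was 0.0567. Sox9 passed the threshold without PBS replicate 2 (log2 fold change 0.46, adjusted p = 0.0372), without TNF replicate 1 (0.43, 0.0151) and without the filter on low counts (0.35, 0.0168), and was lowest without PBS replicate 3 (0.19, 0.24), so its call depended on single libraries and on the filter. The opposite-strand gene BC006965 overlaps 542 exon bases of Sox9 and had 0 to 31 counts per library. Among other SOX factors, 5 of 14 listed genes could be tested, 3 fell and none rose by the test, a share called near the 59.6% of all genes tested. They were Sox4, a factor of progenitor cells (-2.09 ± 0.18), Sox12 (-1.64 ± 0.27) and Sox6 (-1.20 ± 0.14).

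**Figure D2:**
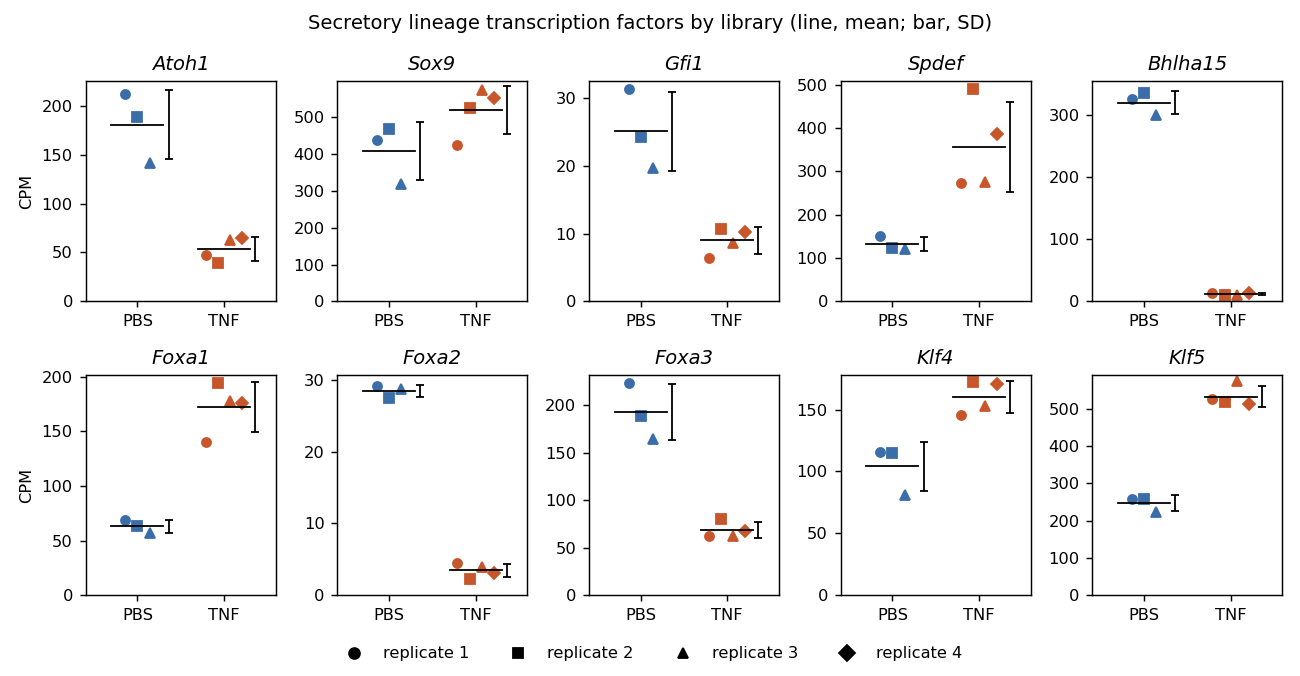
CPM of each factor in each library, PBS in blue and TNF in orange, with a marker shape for each replicate number, the group mean as a line and the SD as a bar. The groups stand apart for 9 factors, and for Sox9 TNF replicate 1 at 426 CPM lies among the PBS libraries.

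The factors of secretory maturation moved in opposite directions. Bhlha15 (ENSMUSG00000052271, chromosome 5, 144127086 to 144131259, 2 exons), which encodes MIST1, had 326, 335 and 300 CPM after PBS and 13.3, 9.61, 10.8 and 12.8 CPM after TNF. The libraries of each group lay close together and far from those of the other group. Means were 320 ± 17.8 CPM (SD, n = 3) and 11.6 ± 1.71 CPM (SD, n = 4), and the difference on the log2 scale was -4.79 ± 0.13 (SE, edgeR adjusted p = 1.68e-11). Ordered by log2 fold change from the lowest, Bhlha15 ranked 105 of 14329 genes tested. It shares 2 exon bases with Tecpr1 on the opposite strand.

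Spdef (ENSMUSG00000024215, chromosome 17, 27933326 to 27947929) had 150, 124 and 121 CPM after PBS and 273, 490, 275 and 386 CPM after TNF. The TNF libraries were spread widely, with replicates 2 and 4 above replicates 1 and 3, but all lay above the PBS libraries. Means were 132 ± 15.8 and 356 ± 104 CPM, and Spdef rose by 1.44 ± 0.20 on the log2 scale (SE, edgeR adjusted p = 6.24e-05).

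Other regulators of secretory capacity were split in the same way. All 7 listed genes were called, 2 higher and 5 lower, with a median log2 fold change of -1.60, where 59.6% of all genes tested were called. Xbp1, which encodes the unfolded protein response factor needed for PC granules, rose by 0.85 ± 0.18 (edgeR adjusted p = 0.00098). Atf6, which encodes a sensor of ER stress, rose by 0.86 ± 0.13. Ern1 and Ern2, which encode the IRE1 enzymes that splice Xbp1 mRNA, had log2 fold changes of -1.60 ± 0.11 and -1.75 ± 0.14. The membrane-bound factors Creb3l1 (-1.56 ± 0.26), Creb3l2 (-1.61 ± 0.11) and Creb3l4 (-1.98 ± 0.14) fell as well.

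The 3 genes listed as targets of MIST1 changed far less than Bhlha15 itself. Atp2c2, a calcium pump of the secretory pathway, had a log2 fold change of -0.67 ± 0.14 and was called (edgeR adjusted p = 0.000897). The vesicle GTPase genes Rab3d and Rab26 were not called, with log2 fold changes of -0.26 ± 0.13 (adjusted p = 0.0977) and -1.21 ± 0.55 (adjusted p = 0.074). Rab3d kept means of 440 CPM after PBS and 367 CPM after TNF, with overlapping groups. Rab26 held few counts, 71 in all PBS and 38 in all TNF libraries. Its groups did not overlap, and its 95% confidence interval of -2.4 to -0.02 leaves the size of its change open. With scaling by total counts, or without PBS replicate 3, the number called was 2.

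Among other ETS factors, the family of SPDEF, 7 of 16 tested genes rose and 3 fell (median 0.23), a share called near the 59.6% of all genes tested. The rises were led by Etv4 (2.07 ± 0.25) and Elk4 (1.88 ± 0.10), and the falls by Etv5 (-2.21 ± 0.28) and Spib (-1.13 ± 0.35).

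The 3 FOXA genes, forkhead pioneer factors that open chromatin, did not move together. Foxa1 (ENSMUSG00000035451, chromosome 12, 57587414 to 57593702) had 68.7, 63.2 and 56.7 CPM after PBS and 140, 194, 178 and 176 CPM after TNF, all TNF libraries being higher. Its log2 fold change was 1.45 ± 0.13 (SE, edgeR adjusted p = 3.75e-07). Foxa2 (ENSMUSG00000037025, chromosome 2, 147884797 to 147889005) had 29.2, 27.5 and 28.8 CPM after PBS and 4.48, 2.30, 3.91 and 3.08 CPM after TNF. The PBS libraries were nearly equal and all TNF libraries were far below them, with 39 to 80 counts each. The log2 fold change was -3.04 ± 0.20 (SE, edgeR adjusted p = 2.4e-08), rank 377 from the lowest of 14329. Foxa3 (ENSMUSG00000040891, chromosome 7, 18747209 to 18757471), the FOXA gene with the highest level per exon length after PBS, had 224, 189 and 165 CPM after PBS and 62.3, 80.1, 62.5 and 67.9 CPM after TNF, without overlap. Its log2 fold change was -1.50 ± 0.13 (SE, edgeR adjusted p = 2.63e-07).

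Since the ratio of a pair of genes within a library does not depend on how libraries are scaled, 6 such ratios were compared between the groups with a two-sided exact permutation test (35 arrangements of 3 and 4 libraries). These ratios are of counts and not per length, so only their change is read. The log2 ratio of Foxa1 to Foxa2 was 1.23, 1.20 and 0.98 in the PBS libraries and 4.95, 6.38, 5.50 and 5.82 in the TNF libraries, a difference of 4.53. The log2 ratio of Foxa1 to Foxa3 rose by 2.94, from -1.61 ± 0.09 in the PBS libraries (SD, n = 3) to 1.33 ± 0.15 in the TNF libraries (SD, n = 4). Also on the log2 scale, the ratio of Foxa2 to Foxa3 fell by 1.59, and that of Atoh1 to Sox9 by 2.14. Foxa2 thus fell further than Foxa3. For each of these 4 ratios and for Klf4 to Klf5, the exact permutation p was 0.0286, the smallest that 35 arrangements can give, and 0.0343 adjusted over 6 ratios.

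The log2 ratio of Atoh1 to Gfi1 was 2.76, 2.96 and 2.85 after PBS and 2.88, 1.85, 2.86 and 2.65 after TNF. The groups overlapped, TNF replicate 2 lay lowest, and the difference of -0.30 had an exact permutation p of 0.429. It was -0.06 without TNF replicate 2 and -0.40 without TNF replicate 1 or 3. A difference between the falls of these genes was therefore not detectable with these libraries.

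**Figure D3:**
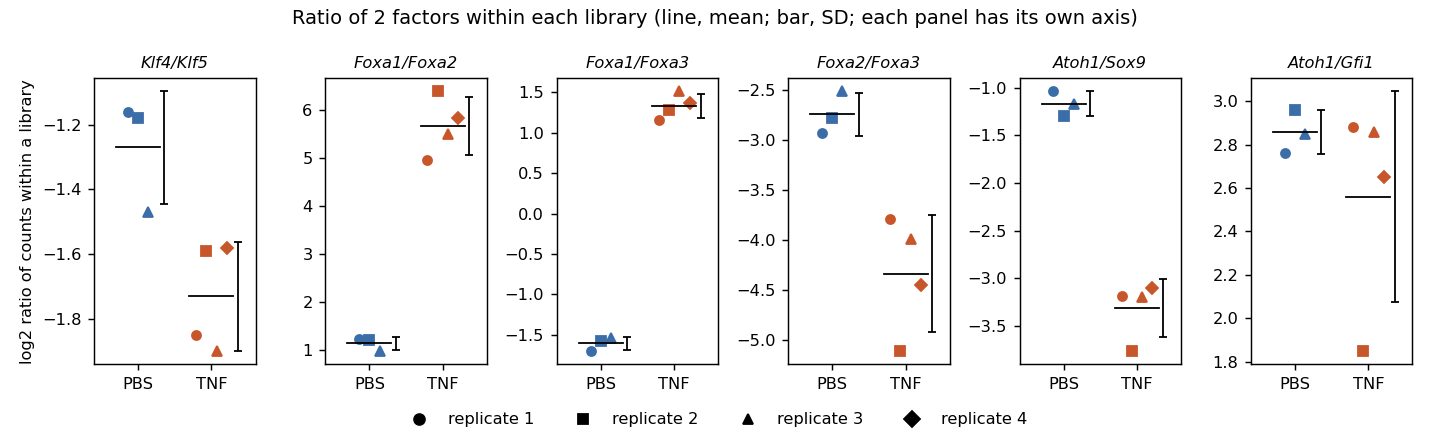
Log2 ratio of the counts of 2 factors within each library, PBS in blue and TNF in orange, with the group mean as a line and the SD as a bar, each panel on its own axis. The groups stand apart in all panels except Atoh1 to Gfi1, where TNF replicate 2 lies at 1.85 and the other TNF libraries among the PBS libraries or just below them.

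Other forkhead factors were spread around 0. Of 12 tested genes, 4 rose and 5 fell, with a median log2 fold change of -0.06. Among all genes tested 29.5% were called higher and 30.1% lower. Foxc1 (2.85 ± 0.44) and Foxq1 (2.15 ± 0.19) rose most, and Foxo4 (-2.11 ± 0.13) and the cell cycle factor gene Foxm1 (-0.91 ± 0.19) fell most. Foxc1 passed the filter on low counts only through the TNF libraries, so a rise was the only call open to it.

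The KLF factors rose. Klf5 (ENSMUSG00000005148, chromosome 14, 99536086 to 99552473), known from proliferating crypt cells, had 259, 259 and 224 CPM after PBS and 526, 518, 574 and 513 CPM after TNF. The TNF libraries formed a narrow range well above the PBS libraries, and Klf5 rose by 1.11 ± 0.11 on the log2 scale (SE, edgeR adjusted p = 1.36e-06). Klf4 (ENSMUSG00000003032, chromosome 4, 55527139 to 55532528), a factor of goblet cells and of cell cycle exit, had 116, 115 and 81.1 CPM after PBS and 146, 172, 153 and 171 CPM after TNF. The groups were apart, PBS replicate 3 being lowest, and the log2 fold change was 0.63 ± 0.13 (SE, edgeR adjusted p = 0.000898). The log2 ratio of Klf4 to Klf5 fell by 0.46, from -1.27 ± 0.17 (SD, n = 3) to -1.73 ± 0.17 (SD, n = 4).

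Most of the tested family members were higher. Of 12 other Kruppel-like factor genes tested, 8 rose and none fell by the test, with a median log2 fold change of 0.92. Among all genes tested 59.6% were called, and 29.5% were called higher. Klf6, an early response gene, rose from a mean of 72.9 to 933 CPM, a log2 difference of 3.68 ± 0.14 (edgeR adjusted p = 2.4e-10). Klf10 rose by 1.84 ± 0.12. The smallest called rises were those of Klf3 (0.48 ± 0.12) and Klf16 (0.60 ± 0.14). Klf14 and Klf17 had 0 counts in all libraries.

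**Figure D4:**
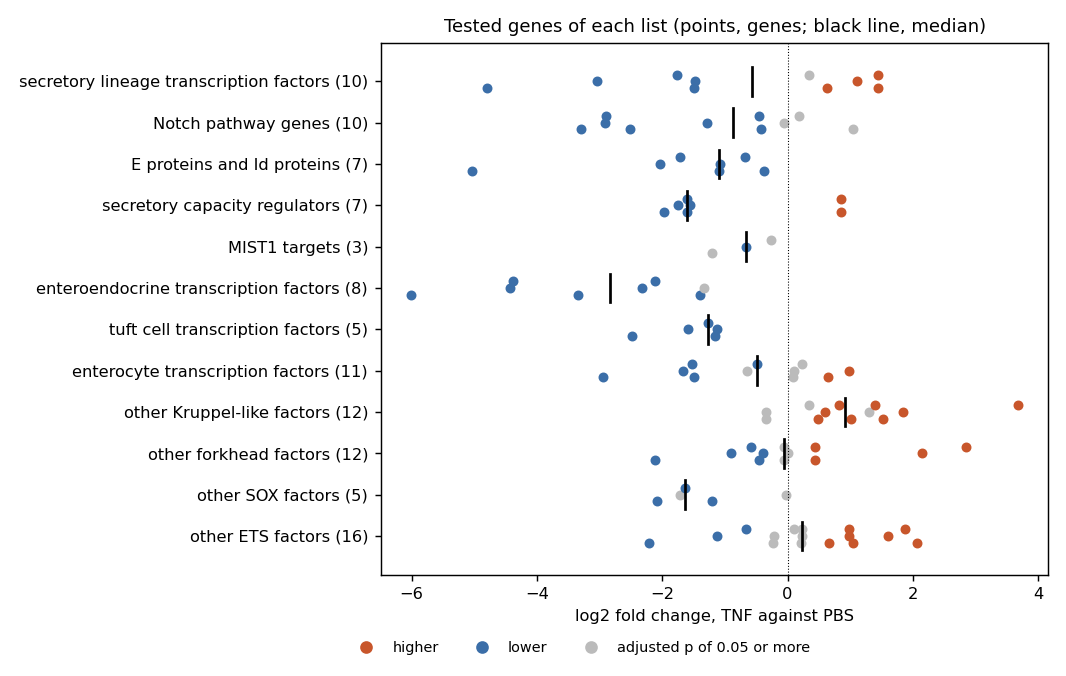
Log2 fold change, TNF against PBS, of each tested gene in the 10 factors and in 11 lists of related genes, with the number of tested genes in brackets, called rises in orange, called falls in blue and the median as a black line. Called genes lie below 0 in the Notch, E and Id protein, enteroendocrine, tuft cell and SOX lists, and above 0 in the Kruppel-like list. They lie on both sides for the 10 factors themselves, and the MIST1 target list has only 1 called gene. For the enteroendocrine factors other than Insm1 a fall was the only call open. Among all genes tested 29.5% were called higher and 30.1% lower.

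Levels were then compared between factors as CPM per kilobase of merged exons. After PBS, the order from the highest mean was Sox9 (97.7), Foxa3 (94.1), Bhlha15 (91.2), Atoh1 (85.5), Spdef (57.2), Klf5 (47.2), Klf4 (33), Foxa1 (18.7), Foxa2 (8.4) and Gfi1 (7.88). The ranges of neighbours overlapped among the 4 highest and between Foxa2 and Gfi1, so their order is not resolved, and did not overlap between the other neighbours. After TNF, the order was Spdef (155), Sox9 (124), Klf5 (102), Foxa1 and Klf4 (both 51.1), Foxa3 (33.4), Atoh1 (25.1), Bhlha15 (3.3), Gfi1 (2.82) and Foxa2 (1.01). Overlap was found between Spdef and Sox9, Sox9 and Klf5, Foxa1 and Klf4, and Bhlha15 and Gfi1. Bhlha15 thus went from the unresolved group of the 4 highest to the lowest 3.

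The order depended on the length used for Klf5, whose merged exons (5243 bases) are longer than its longest transcript (3426 bases). With the longest transcript, Klf5 was at position 5 instead of 6 after PBS and at 2 instead of 3 after TNF, where it lay above Sox9 without overlap, and the ranges of Atoh1, Klf5 and Spdef after PBS then overlapped from neighbour to neighbour.

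**Figure D5:**
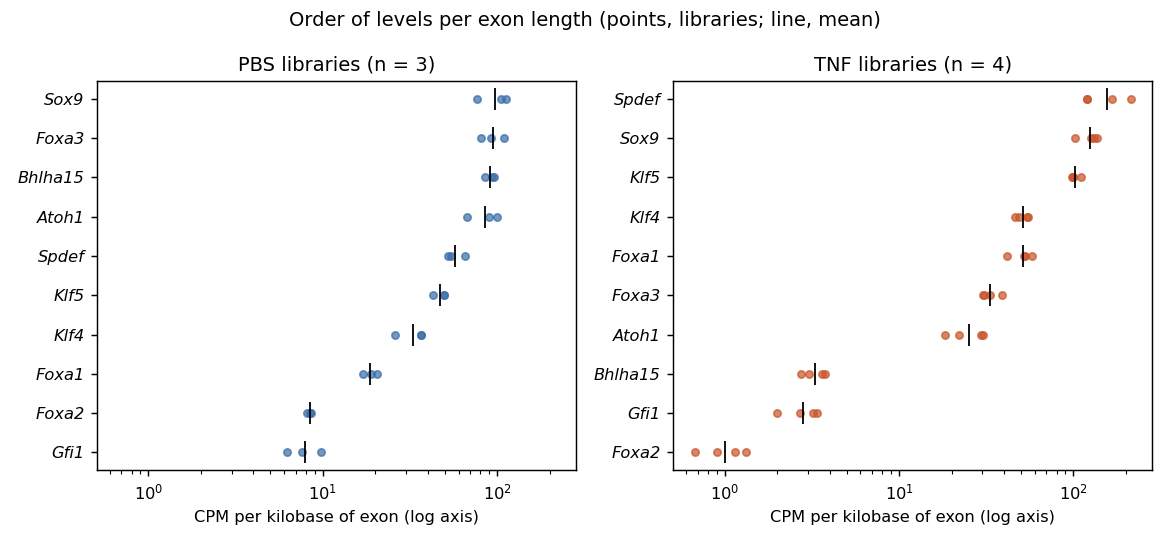
CPM per kilobase of merged exons on a log axis for each factor, PBS libraries on the left and TNF libraries on the right, ordered by the group mean (black line), with a point for each library. Sox9 is near the top on both sides, whereas Bhlha15 lies at 91.2 on the left and at 3.3 on the right.

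Transcription factors of the tuft cell and enterocyte fates, the other branches of the epithelium, were lower or mixed. All 5 tuft cell factors fell (median -1.27), where 30.1% of all genes tested were called lower. They ran from Hmx2 (-2.49 ± 0.34) and Pou2f3 (-1.59 ± 0.38), the master factor of tuft cells, to Gfi1b (-1.27 ± 0.36), Hmx3 (-1.16 ± 0.35) and Spib (-1.13 ± 0.35). Only 2 of them were called without PBS replicate 2. Of 11 enterocyte factors, 2 rose and 5 fell, again a share near that of all genes tested. Gata4, a factor of the proximal intestine, had a log2 fold change of -2.94 ± 0.16, Gata5 -1.67 ± 0.13 and Hnf4a -1.53 ± 0.11, while Elf3 rose (0.98 ± 0.11). The intestinal identity factor Cdx2 was not called (0.09 ± 0.10, edgeR adjusted p = 0.433). Elf3 and Spib are also counted among the ETS factors.

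Markers of PCs and of other crypt cells were read in the same libraries, because several of these factors are shared between cell types. The PC genes Lyz1 (96500 and 119000 CPM in the PBS and TNF means) and Ang4 (6260 and 7110 CPM) were high in both groups and not called, and Mmp7 rose by 0.88 ± 0.21. Over 10 PC markers 1 rose and 5 fell, a share called near the 59.6% of all genes tested (29.5% higher and 30.1% lower). Those that fell, named after their values were seen, were Clps (-2.27 ± 0.43), Habp2 (-1.26 ± 0.16), the Wnt ligand gene Wnt3 (-1.62 ± 0.13) and the surface marker genes Kit (-1.68 ± 0.11) and Cd24a (-0.46 ± 0.17). The summed level of the PC markers, in which Lyz1, Defa24 and Itln1 took the largest shares, was 168000 to 269000 CPM after PBS and 160000 to 287000 CPM after TNF. Of 10 goblet cell markers, 6 fell and none rose by the test, again a share called near that of all genes tested. Their summed levels were 11600 to 21100 CPM after PBS and 9370 to 10700 CPM after TNF. Muc2 was not called (5370 and 5870 CPM), whereas Tff3 (-2.14 ± 0.24) and Fcgbp (-5.62 ± 0.36) fell. All 9 tuft cell markers fell, Dclk1, Trpm5 and Rgs13 among them (1630 to 2680 CPM and 335 to 838 CPM in sum). All 7 stem cell markers fell too, Lgr5, Olfm4 and Ascl2 among them (2740 to 3880 CPM and 1090 to 1730 CPM). Of the goblet, tuft and stem cell markers, Zg16, Il25 and Ascl2 passed the filter on low counts only through the PBS libraries. A fall was thus the only call open to these genes. Apart from Il25, the goblet, tuft and stem cell markers named here were above 0 in every library.

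Of 10 tested enteroendocrine markers 1 rose and 5 fell, a share called near the 59.6% of all genes tested. Their sums were 57.2 to 188 CPM after PBS and 57.9 to 88.7 CPM after TNF. Gip, Sst and Ghrl passed the filter on low counts only through the PBS libraries, and Tac1 only through the TNF libraries. Each of these genes could thus be called in 1 direction only. Tac1 held a large part of the TNF sum (means of 1.71 and 41.1 CPM), and PBS replicate 3 was low in Chga (2.07 CPM against 24.6 and 20.4 CPM) and Chgb (6.26 CPM against 34.6 and 29.9 CPM). Chga was not called (-1.44 ± 0.89), Chgb fell (-2.44 ± 0.52) and Tac1 rose (4.61 ± 0.49). Of 6 tested enterocyte markers 1 rose and 4 fell, with sums of 364 to 490 CPM and 88.9 to 111 CPM. Apoa1, Apoa4 and Sis passed the filter on low counts only through the PBS libraries, so a fall was the only call open to them. Anpep (means of 375 and 43.4 CPM after PBS and TNF, called lower) held most of the PBS sum, and Slc5a1 (38.8 and 53.5 CPM, called higher) and Anpep most of the TNF sum. Apoa1 had 18, 434 and 45 counts in the PBS libraries, most of them in replicate 2, and 1 count in all TNF libraries. Alpi held 109 and 4 counts and Fabp1 was not called (-0.86 ± 0.62). Leukocyte markers summed to 24.1 to 31.9 CPM and 18.7 to 28.4 CPM (of 4 tested, S100a9 rose and Ptprc fell), with Cd3e at 0 in all libraries. S100a9, a neutrophil gene that stressed epithelium also expresses, had 0 counts in all PBS and 399 in all TNF libraries. It passed the filter on low counts only through the TNF libraries, so a rise was the only call open to it. Stromal and endothelial markers summed to 1.92 to 2.44 CPM and 0.472 to 1.06 CPM, and the only tested gene, Vim, fell. Vim had 106 counts in all PBS and 34 in all TNF libraries. It passed the filter on low counts only through the PBS libraries, so a fall was the only call open to it. S100a9, Vim, Anpep, Slc5a1, Apoa4, Sis, Gip, Sst, Ghrl, Zg16 and Il25 were named after their values were seen. The part of these other cells in the changes of the 10 factors was not tested.

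The nearest tested genes on either side of each factor were examined after the other results were known. Of 20 neighbours 7 rose, 5 fell and 8 were not called, and 9 were called in the direction of the estimate of their factor. The share called was near the 59.6% of all genes tested. Next to Bhlha15, Lmtk2 lay 2063 bases away and was not called (log2 fold change -0.14 ± 0.11), and Tecpr1 fell by 1.17 ± 0.12. Next to Foxa2, the RNA gene 9030622O22Rik, 2227 bases away, had a log2 fold change of -5.19 ± 0.31 (edgeR adjusted p = 1.22e-08), larger in size than that of Foxa2. Next to Foxa1, Ttc6 rose by 1.91 ± 0.20. Both neighbours of Foxa3 fell, Irf2bp1 by 1.77 ± 0.11 and Sympk by 0.84 ± 0.10, and both neighbours of Gfi1, Rpap2 (0.15 ± 0.14) and Evi5 (0.17 ± 0.11), were not called. Of the neighbours of Atoh1, Ccser1 rose (0.93 ± 0.11) at a distance of 2346259 bases.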

How the data were processed

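Whole-number counts per Ensembl gene were deposited by the authors for 7 libraries of sorted PCs. The submitters' processing notes name FastQC, Trimmomatic 0.39, STAR 2.7.10a, DESeq2, mm10 and mm39, without roles. Counting program, annotation and strandedness remain not given in the sources used here. Reads of overlapping genes on opposite strands may therefore not be separated. Symbols, positions and lengths come from GENCODE M39 (GRCm39), which held 98.8% of the 55414 identifiers, and promoter windows from RefSeq (GRCm38.p6).

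TNF and PBS libraries were compared with the edgeR 4.0.16 quasi-likelihood test (R 4.3.3, two-sided, robust, filterByExpr, TMM scaling, no covariates), with Benjamini-Hochberg adjustment over 14329 genes, which was tested on simulated data. The SE is the fitted change divided by the square root of F, and CPM from TMM-scaled library sizes. Alternatives were DESeq2 1.42.0 (test and size factors), total-count scaling, TMM without alpha-defensins and Lyz1, other filters, a replicate block and leaving out each library. The 10 factors and all lists were chosen with earlier results of these data known. Named were all 10 factors, up to 2 genes of each related list with the largest and the smallest log2 fold change among called genes, genes with a textbook tie to a factor, and the leading listed markers of each cell type. No batch was examined, since neither labels nor headers name sorting or sequencing days. The result of 1 gene that this rule would name is not reported here.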

Additional observations from a re-analysis of the deposited data

Results flagged for a closer look

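In the 4 TNF libraries 87 values were examined, the CPM of the 10 factors and of part of the named genes, and the 6 ratios. Groups of 3 PBS libraries were too small. Not examined were named genes such as Anpep, with 49.7 CPM in TNF replicate 4 and 41 to 41.6 CPM in the other TNF libraries. Of the 87 values, 4 had a library apart from the others by Dixon's ratio, where chance gives about 1 in 20. None was the CPM of one of the 10 factors. The log2 ratio of Atoh1 to Sox9 was -3.76 in TNF replicate 2 and -3.19 to -3.10 in the other TNF libraries (Dixon ratio 0.864). The other 3 were genes with nearly no counts after TNF, namely Pax6 with 0.112 CPM in TNF replicate 1, Apoa1 with 0.056 CPM in TNF replicate 1 and Alpi with 0.214 CPM in TNF replicate 3, each at 0 in the other TNF libraries.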

How the results depend on the processing

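Over 14 alternatives for each of the 10 factors (140 values), 137 kept their direction and their side of the threshold, 3 passed it newly and none reversed. All 126 values of the 9 called factors stayed called in the same direction. The 3 were those of Sox9, at 0.35 without the filter on low counts, 0.46 without PBS replicate 2 and 0.43 without TNF replicate 1. Sox9 ran from 0.19 to 0.46 over all libraries left out, had an adjusted p of 0.0518 in DESeq2 and a log2 fold change of 0.19 with scaling by total counts. Scaling by total counts moved the median of all genes to -0.16 and Klf4 to 0.48, still called. The number of called MIST1 targets was 2 with scaling by total counts and ran from 1 to 2 when libraries were left out, that of tuft cell factors from 2 to 5, and that of enteroendocrine factors from 5 to 10, with 11 without the filter, where more genes are tested. Without a library the exact test of the ratios cannot reach the threshold, and the differences ran from -0.56 to -0.41 (Klf4 to Klf5), 4.29 to 4.76 (Foxa1 to Foxa2), 2.88 to 2.99 (Foxa1 to Foxa3), -1.77 to -1.33 (Foxa2 to Foxa3), -2.21 to -1.98 (Atoh1 to Sox9) and -0.40 to -0.06 (Atoh1 to Gfi1). With the longest transcript as length, levels per kilobase were 68.5 (Spdef, PBS), 8.89 (Foxa2, PBS), 72.2 (Klf5, PBS) and 156 (Klf5, TNF). Replicate numbers did not pair the libraries (correlations of deviations -0.367, -0.038 and -0.212 for equal numbers). With a replicate block 3553 genes were higher and 3578 lower against 4229 and 4314, no PBS library correlated best with the TNF library of its own number, the 9 factors stayed called (Bhlha15 at -4.84, Klf4 at 0.61), Sox9 had 0.32, and 5 of 7 E and Id protein genes were called. Depth limits genes with few counts, such as Foxa2 with 39 to 80 counts in each TNF library and most enteroendocrine factors.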
